A study of Mus musculus with 15 samples.

Results

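Transcripts named as nuclear-encoded subunits of respiratory complex I were followed in quadriceps of male DBA/2J-mdx mice, which lack dystrophin and model Duchenne muscular dystrophy. Members were the rows of the deposited table whose symbol is Ndufab1 or starts with Ndufa, Ndufb, Ndufc, Ndufs or Ndufv followed by a digit, leaving out the Ndufaf assembly factors and pseudogenes. This gave 38 genes of 14272 named rows, and all 38 passed the filter on low values, so each was tested. Mice of the daily group had 7 intraperitoneal injections a week of 1 mg/kg prednisone, a synthetic glucocorticoid. In the weekly group 1 of the 7 injections held 1 mg/kg prednisone and 6 held vehicle, and in the vehicle group all 7 held DMSO, the solvent. Each group had 5 libraries, all from dystrophic muscle, and no library of a healthy strain was analysed here. The labels give an age of 6 months in the protocol and about 7 months in the sample fields, and no treatment duration is given in the sources used here. Nothing in them states that the libraries of a group are separate animals, and p-values then measure the spread between these samples alone, which may be technical.

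Complex I is the entry point of the respiratory chain in the inner mitochondrial membrane. Its matrix arm takes electrons from NADH, passes them along iron-sulfur clusters and hands them to ubiquinone, and its membrane arm pumps protons. Core subunits carry out this chemistry and are found from bacteria to mammals, while accessory subunits surround the core and are needed for assembly or stability. The core subunits of the membrane arm are encoded by the mitochondrial genome, and all others by the nucleus. Oxidative muscle fibres hold more of the complex than fast glycolytic fibres. Ndufa4 carries a complex I name but is known as a subunit of complex IV, and Ndufa4l2 is its paralog, known as a hypoxia-induced gene. Both met the naming rule and are kept apart below.

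Values are CPM, reads scaled to the library total, and recovered depth was 2780768 to 11052552 reads. Weekly 4 stood apart. It was the shallowest library, its mitochondrially encoded complex I transcripts summed to 462 CPM (7520 to 9377 CPM in the 4 weekly libraries besides it), and its 6 fibroblast markers summed to 24754 CPM (2132 to 3129 CPM besides it). Daily 3 had a low level of most genes, with a TMM factor of 0.652, where TMM is a scaling that sets the bulk of genes level between libraries. The biological coefficient of variation over all genes was 9.4% in daily, 29.4% in weekly (16.9% without weekly 4) and 3.55% in vehicle. It is the root of edgeR's common dispersion after TMM scaling within the group, which leaves out counting error. The 13 markers of skeletal muscle fibres summed to 57576 to 89300.0 CPM over daily, 74820.3 to 121243 CPM over weekly and 93127 to 95676 CPM over vehicle libraries, so the labelled tissue was present in every library. Results on the deposited scale are therefore given beside TMM scaling, and with weekly 4 or daily 3 left out where that changes them. TMM scaling set the median change of all genes to 0.01, 0.00 and 0.01 (log2) for weekly against vehicle, daily against vehicle and daily against weekly, where the deposited scale had 0.17, -0.08 and -0.24. Over all genes, calls on the deposited scale split into 983 higher and 150 lower, 248 higher and 299 lower, and 68 higher and 1159 lower in these comparisons, and with TMM scaling into 803 and 592, 786 and 489, and 294 and 371.

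On the deposited scale weekly libraries had the highest summed levels of complex I transcripts. The summed level of the 38 members was 2887, 3038, 1853, 2738 and 2446 CPM in daily replicates 1 to 5. It was 4387, 3319, 3555, 3736 and 3955 CPM in weekly replicates 1 to 5, and 2898, 2906, 2917, 2857 and 3036 CPM in vehicle replicates 1 to 5. All 5 weekly sums lay above all daily and all vehicle sums, and the daily sums reached from below the vehicle range to just above it. With TMM scaling the weekly libraries were not all above vehicle: 18 of 38 members in weekly 4 and 23 in weekly 3 lay above the vehicle mean, beside 37, 27 and 30 in weekly 1, 2 and 5. In bulk tissue, fewer cells of a type and less RNA per cell cannot be told apart.

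**Figure D1:**
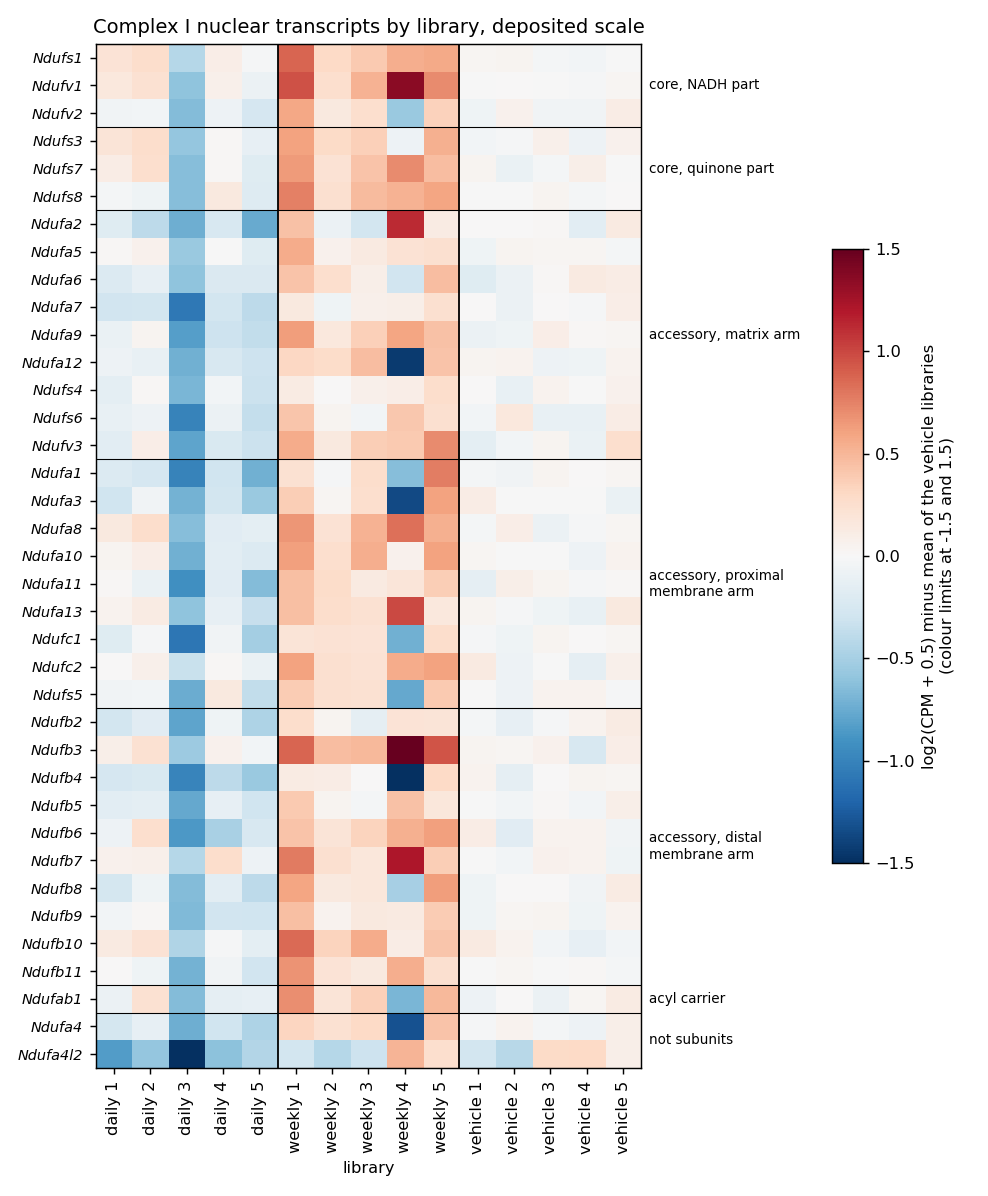
Level of 37 of the 38 members (rows, by part of the complex) in each of 15 libraries (columns), as log2(CPM + 0.5) minus the mean of the 5 vehicle libraries on the deposited scale. Weekly columns are mostly red, daily 3 is blue in every row, and weekly 4 holds both the most raised values, such as Ndufb3 at 120.5 CPM, and the most lowered ones, such as Ndufb4 at 9.35 CPM.

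Ndufv1, Ndufb3 and Ndufa9 were the members that had 1 comparison in which they were called under each of 29 settings, and their promoters are printed first, as the regulatory sequence beside the results on them. Each is 120 bases that end upstream of both the RefSeq and the GENCODE start, read 5′ to 3′ on the gene's strand from RefSeq (GRCm38.p6), and capitals mark a match to a searched motif.
Ndufv1, chr19:4012807-4012926, minus strand: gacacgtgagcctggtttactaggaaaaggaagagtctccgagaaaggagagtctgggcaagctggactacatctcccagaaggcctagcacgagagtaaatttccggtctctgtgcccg
Ndufb3, chr1:58586264-58586383, plus strand: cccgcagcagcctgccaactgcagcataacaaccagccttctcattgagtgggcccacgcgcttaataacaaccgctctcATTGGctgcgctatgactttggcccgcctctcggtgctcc
Ndufa9, chr6:126849145-126849264, minus strand: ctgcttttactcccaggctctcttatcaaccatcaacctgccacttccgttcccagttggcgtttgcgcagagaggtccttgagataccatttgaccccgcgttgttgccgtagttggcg
The Ndufb3 match is the reverse complement of a CCAAT box. The other pair held no match in these letters.

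Weekly against vehicle. After weekly prednisone 7 of the 38 members rose and none fell at an adjusted p under 0.05 (limma on log2(CPM + 0.5), Benjamini-Hochberg adjustment over all genes). They are 18.4% of the members, against 6.99% of the 14059 genes tested called higher and 1.07% called lower. Ndufv1, Ndufs1, Ndufs7 and Ndufs8 are core subunits of the matrix arm, and Ndufb3, Ndufa8 and Ndufc2 are accessory subunits of the membrane arm. The change was above 0 for 34 members, with a median of 0.25 (log2) where all genes had 0.17. With TMM scaling 6 members rose, all of the 7 but Ndufc2, which is 15.8% of the members against 5.71% of all genes, and 26 changes were above 0 with a median of 0.07.

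Ndufv1, on chromosome 19 (4007384 to 4012806, minus strand, GRCm38), holds the flavin that accepts electrons from NADH. It measured 152, 160.0, 90.1, 144 and 129 CPM in daily replicates 1 to 5. Weekly replicates 1 to 5 had 266, 163, 197, 349.9 and 223 CPM, and vehicle replicates 1 to 5 had 136, 138, 136, 135 and 139.8 CPM. Every weekly library lay above every vehicle library and above every daily library, with weekly 4 highest. The weekly change against vehicle was 0.76 (log2, SE 0.18, limma adjusted p = 0.00994) and 0.58 with TMM scaling (adjusted p = 0.0104). The mean of the weekly libraries was 239.96 ± 72.0 CPM with weekly 4 and 212 ± 43.3 CPM without it, and that of the vehicle libraries was 137 ± 1.98 CPM (SD).

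Ndufs1, the largest core subunit of the matrix arm and a carrier of iron-sulfur clusters, measured 275 to 409 CPM in weekly libraries, with a median of 325, against 217 to 230.5 CPM in vehicle libraries. The groups did not overlap, and the change was 0.53 (log2, SE 0.14, limma adjusted p = 0.0225). Ndufv2, which carries an iron-sulfur cluster beside the flavin, averaged 154 ± 39.9 CPM over the 5 weekly libraries, against 134 ± 7.58 CPM over the 5 vehicle libraries (SD), and was not called (0.15, adjusted p = 0.612). Its weekly 4 library had 91.0 CPM, while the other weekly libraries had 148 to 199.8 CPM.

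Among the core subunits nearest to ubiquinone, Ndufs7 and Ndufs8 rose. Ndufs8, which carries iron-sulfur clusters on the way to ubiquinone, measured 64.6, 44.97, 52.9, 55.0 and 57.4 CPM in weekly replicates 1 to 5, against 37.7, 37.8, 39.2, 37.3 and 38.2 CPM in vehicle replicates 1 to 5. Its groups were apart by several CPM, with a change of 0.52 (log2, SE 0.14, limma adjusted p = 0.0288). Ndufs7, the carrier of the last cluster before ubiquinone, measured 101 to 143 CPM over weekly and 81.5 to 92.9 CPM in vehicle libraries, with a change of 0.49 (adjusted p = 0.0462). Ndufs3, a core subunit at the foot of the matrix arm, had a change of 0.34 (adjusted p = 0.177) and 95.3 CPM in weekly 4, within its vehicle range of 95.2 to 106 CPM. In all, 4 of 7 nuclear core subunits and 3 of the other 31 members were called.

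Ndufb3, a small accessory subunit of the distal membrane arm on chromosome 1 (58586384 to 58595964, plus strand, GRCm38), had the largest change of the members. It measured 32.7, 36.1, 20.9, 32.2 and 30.1 CPM in daily replicates 1 to 5. Weekly replicates 1 to 5 had 57.0, 42.6, 43.6, 120.5 and 60.0 CPM, and vehicle replicates 1 to 5 had 31.8, 31.5, 32.3, 26.1 and 33.1 CPM. All weekly libraries lay above all others, and weekly 4 had about the level of the next 2 weekly libraries together. The change was 0.94 (log2, SE 0.21, limma adjusted p = 0.00851), and the weekly mean was 64.7 ± 32.1 CPM with weekly 4 and 50.8 ± 8.98 CPM without it, against a vehicle mean of 31.0 ± 2.78 CPM (SD). Ndufa8, an accessory subunit on the intermembrane side, had a change of 0.55 (adjusted p = 0.0317), with 56.6 to 86.7 CPM over weekly and 46.0 to 52.2 CPM in vehicle libraries. Ndufc2, a membrane-arm subunit, had a change of 0.45 (adjusted p = 0.0399), with 38.9 to 51.1 CPM over weekly and 30.2 to 36.6 CPM in vehicle libraries.

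**Figure D2:**
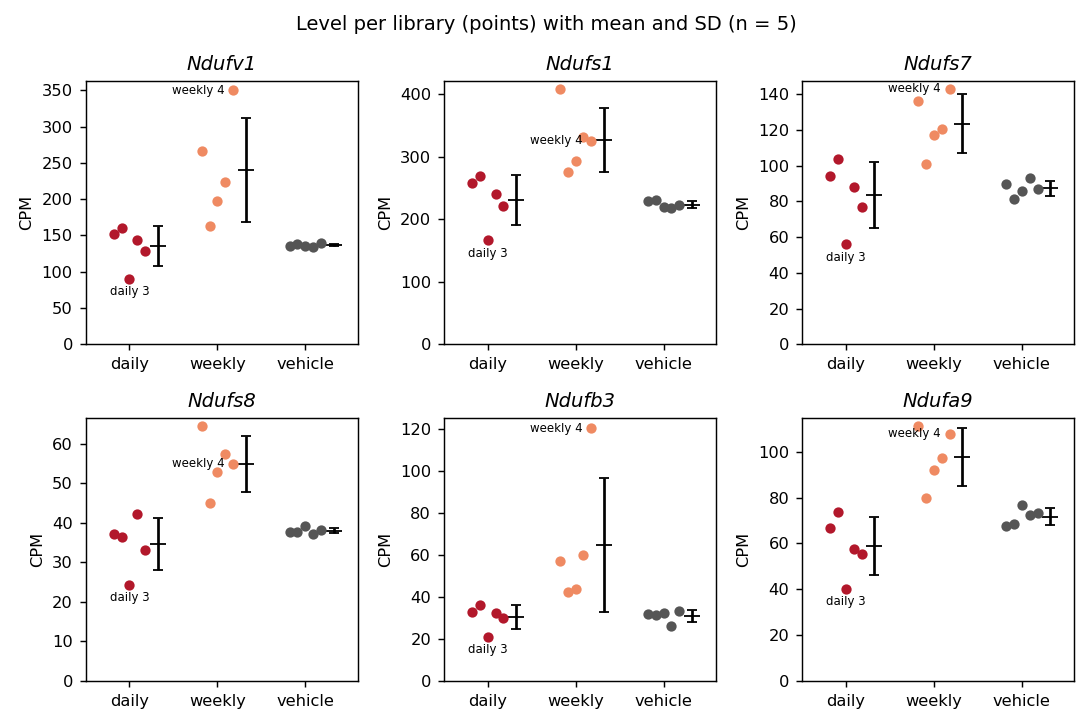
CPM per library (points) of 6 members, with the mean and SD of the 5 libraries of each group beside them; daily 3 and weekly 4 are marked. For Ndufv1, Ndufs1, Ndufs7, Ndufs8 and Ndufb3 all weekly points lie above all vehicle points, and for Ndufa9 weekly points (79.9 to 111 CPM) lie above daily points (40.3 to 73.6 CPM).

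None of the 9 accessory subunits of the matrix arm passed the test in weekly against vehicle, where their changes were 0.00 to 0.44 with a median of 0.21. Of the proximal membrane arm 2 of 9 passed (median 0.28), and of the distal membrane arm 1 of 10 (median 0.30). Ndufb7, a distal-arm subunit on the intermembrane side, had a change of 0.56 but an adjusted p of 0.05 that rounds to the threshold from above. The lowest signed changes were those of Ndufb4 (-0.32, SE 0.31), Ndufa4l2 (-0.05) and Ndufa3 (-0.02). Weekly and vehicle libraries did not overlap, weekly being higher, for 16 members, or 42.1% against 11.8% of all genes, and with TMM scaling for 7 members, or 18.4% against 5.36%.

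The number of calls in weekly against vehicle moved with the libraries used, for the members and for all genes. Without any single vehicle library 2 members, Ndufb3 and Ndufv1, were called, beside 645 to 684 of all genes (1133 with every library), and the members' median stayed at 0.24 to 0.27. The same 2 were called without weekly 5, beside 676 of all genes and a median of 0.25, and without weekly 1, beside 1416 of all genes and a median of 0.20. Leaving out daily 3 gave 15 members beside 2251 of all genes, leaving out weekly 2 gave 11 beside 1658, and leaving out weekly 4 gave 12 beside 1566. Ndufb3 and Ndufv1 were called under each of 29 settings, and neither was called when the vehicle libraries were averaged into 1 sample, a setting in which 7 genes of all those tested were called.

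**Figure D3:**
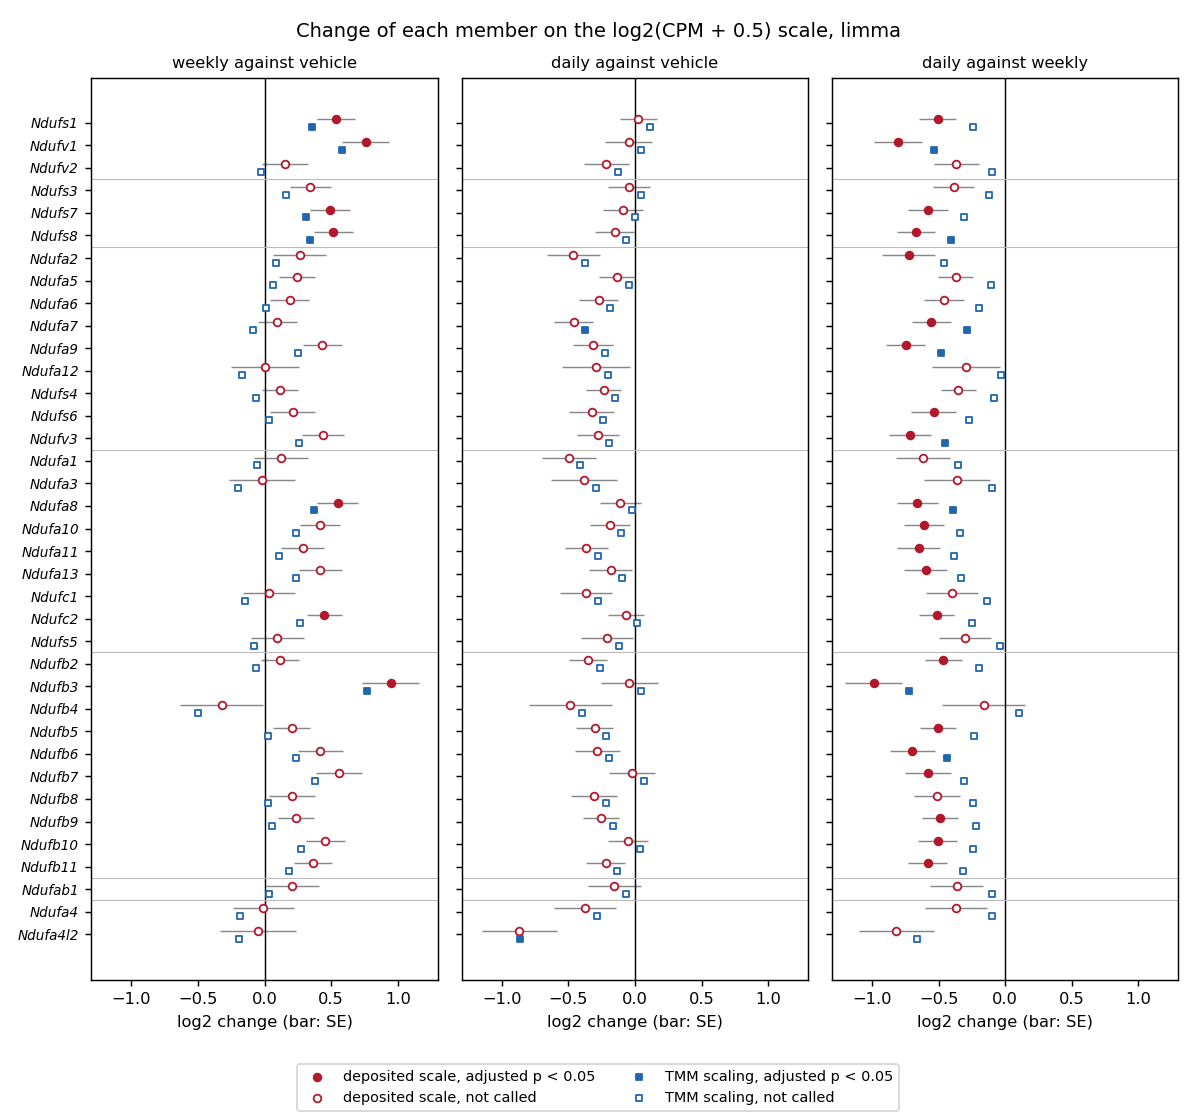
Log2 change of 37 of the 38 members in the 3 comparisons, on the deposited scale (circles, with SE) and with TMM scaling (squares); filled symbols have a limma adjusted p under 0.05. Weekly against vehicle lies mostly right of 0, daily against vehicle mostly left of it with filled TMM squares at Ndufa7 and Ndufa4l2, and daily against weekly wholly left of 0 on the deposited scale.

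Daily against weekly. In daily libraries 23 of the 38 members were lower than in weekly libraries, and none was higher. This is 60.5% of the members, against 8.24% of all genes called lower and 0.484% called higher. The change was below 0 for all 38 members on the deposited scale, with a median of -0.53 (log2) where all genes had -0.24. Fitting only the daily and weekly libraries left that median as it was and called 2 members, Ndufa9 and Ndufb3, beside 232 of all genes. With TMM scaling 8 members were lower, or 21.1% against 2.64% of all genes. These were Ndufa9, Ndufv3, Ndufb3, Ndufa8, Ndufv1, Ndufa7, Ndufs8 and Ndufb6, and 37 changes were below 0 with a median of -0.26. The exception with TMM scaling was Ndufb4, at 0.10.

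Ndufa9, on chromosome 6 (126821721 to 126849136, minus strand, GRCm38), is an accessory subunit that binds a nucleotide cofactor near the junction of both arms. It measured 66.8, 73.6, 40.3, 57.6 and 55.3 CPM in daily replicates 1 to 5. Weekly replicates 1 to 5 had 111, 79.9, 91.9, 108 and 97.1 CPM, and vehicle replicates 1 to 5 had 67.6, 68.6, 76.7, 72.6 and 73.2 CPM. Daily and weekly libraries did not overlap, and vehicle libraries lay between the weekly libraries and the lower daily ones. Daily minus weekly was -0.75 (log2, SE 0.15, limma adjusted p = 0.0038), and -0.48 with TMM scaling (adjusted p = 0.00855). It was the only member called in this comparison under each of 29 settings.

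Ndufb3 (-0.99, adjusted p = 0.00794) and Ndufv1 (-0.80, adjusted p = 0.00854) had the largest called changes in daily against weekly, and their groups did not overlap. Ndufa4l2 (-0.82, adjusted p = 0.0707) lay between them without being called. Ndufv3, an accessory subunit of the matrix arm beside the flavin subunit, measured 34.3, 41.2, 21.8, 32.6 and 30.6 CPM in daily replicates 1 to 5, against 56.7, 42.5, 49.7, 50.3 and 63.1 CPM in weekly replicates 1 to 5. Its groups were apart, and the change was -0.72 (SE 0.16, limma adjusted p = 0.00842). Ndufa7, a further accessory subunit of the matrix arm, measured 40.2, 40.6, 23.1, 40.4 and 37.3 CPM in daily, against 54.2, 46.9, 51.7, 52.1 and 57.9 CPM in weekly replicates 1 to 5, again without overlap (-0.55, adjusted p = 0.0236).

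By role, the core subunits Ndufv1, Ndufs1 (-0.51, adjusted p = 0.03), Ndufs7 (-0.58, adjusted p = 0.0216) and Ndufs8 (-0.67, adjusted p = 0.00697) were lower in daily than in weekly libraries. Ndufv2 (-0.37, adjusted p = 0.162) and Ndufs3 (-0.39, adjusted p = 0.107) were not called. Of the accessory subunits, 5 of 9 in the matrix arm, 5 of 9 in the proximal membrane arm and 8 of 10 in the distal membrane arm were lower, with medians of -0.54, -0.60 and -0.51. In the matrix arm these were Ndufa2, Ndufa7, Ndufa9, Ndufs6 and Ndufv3, with changes of -0.75 to -0.54. In the proximal arm they were Ndufa8, Ndufa10, Ndufa11, Ndufa13 and Ndufc2, with changes of -0.66 to -0.51. In the distal arm Ndufb8 (-0.51, adjusted p = 0.0651) and Ndufb4 were not called, and the 8 others ran from -0.99 for Ndufb3 to -0.46 for Ndufb2. The changes nearest 0 were those of Ndufb4 (-0.16), Ndufa12 (-0.30) and Ndufs5 (-0.30), whose weekly 4 values of 9.35, 14.02 and 21.6 CPM lay below all other libraries of the weekly group.

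Daily libraries lay wholly below weekly libraries for 17 members, or 44.7% against 6.98% of all genes, and with TMM scaling for 7 members, or 18.4% against 2.53%. Leaving out weekly 4 gave 35 called members, all lower, with a median of -0.58, beside 1888 calls among all genes (1227 with every library). Without daily 5 there were 11 beside 651 and without weekly 5 there were 12 beside 521, with medians of -0.52 and -0.51. Without daily 3 there were 17 beside 756, with a median of -0.42, where that of all genes moved from -0.24 to -0.12. With TMM scaling and both weekly 4 and daily 3 left out, a setting chosen after seeing the data, 24 members were lower, beside 1704 calls among all genes, with a median of -0.34 beside 0.00 for all genes.

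Daily against vehicle. No member passed the test after daily prednisone (limma), where 2.13% of all genes were called lower and 1.76% higher. An unadjusted limma p under 0.05 was found for 8 of 38 members, beside 2335 of the 14059 genes tested. Changes were below 0 for 37 of 38 members, with a median of -0.24 (log2) beside -0.08 for all genes, and Ndufs1 (0.03) was the exception. The 7 nuclear core subunits lay between -0.21 and 0.03, and the 9 accessory subunits of the matrix arm between -0.46 and -0.13. With TMM scaling 31 changes were below 0, with a median of -0.16, and 2 members were called lower, which is 5.26% of the members against 3.48% of all genes. edgeR and DESeq2 on the recovered reads called the same 2, Ndufa7 and Ndufa4l2.

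Ndufa7 had 23.1 to 40.6 CPM in the daily libraries given above, against 49.3, 46.0, 49.3, 48.6 and 52.4 CPM in vehicle replicates 1 to 5. Each daily library lay below each vehicle library. The change was -0.46 (SE 0.15, limma adjusted p = 0.0864) on the deposited scale and -0.37 (SE 0.08, adjusted p = 0.00572) with TMM scaling. It was also called without daily 3 on the deposited scale. Ndufa1, a small membrane-arm subunit encoded on the X chromosome, measured 22.02, 21.2, 12.4, 20.5 and 15.2 CPM in daily, against 24.95, 24.5, 26.2, 25.4 and 26.0 CPM in vehicle replicates 1 to 5. The groups were apart, but the change of -0.50 was not called (SE 0.20, adjusted p = 0.208).

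Daily libraries lay wholly below vehicle libraries for 7 members, or 18.4% against 8.82% of all genes. With TMM scaling this held for 13 members, or 34.2% against 9.6%. Of the 7, Ndufa2 and Ndufa7 belong to the matrix arm, Ndufa1 to the proximal and Ndufb4 and Ndufb5 to the distal membrane arm, and Ndufa4 and Ndufa4l2 are not complex I subunits. Leaving out daily 3 moved the median to -0.13, where that of all genes moved from -0.08 to 0.04. It gave 1 call, lower, beside 268 genes called lower of all genes. Leaving out weekly 4, which leaves the compared libraries and the median of -0.24 as they were, gave 6 calls, all lower, beside 893 genes called lower of all genes (299 with every library). TMM scaling without weekly 4 gave 10, all lower, beside 1368 genes called lower, with the median at -0.16 as with every library. Both vehicle comparisons share the vehicle libraries, and both weekly comparisons the weekly libraries.

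Ndufab1, the mitochondrial acyl carrier protein that sits in both arms and also serves fatty acid synthesis in mitochondria, was called in no comparison (0.21, -0.15 and -0.36 for weekly against vehicle, daily against vehicle and daily against weekly). It had 46.4 CPM in weekly 4, while the rest of the weekly group had 85.8 to 122 CPM. Ndufa4 likewise was not called (-0.01, -0.38 and -0.37), with 48.5 CPM in weekly 4, 141 to 162 CPM in the rest of the weekly group, 72.6 to 111 CPM in daily and 114 to 128 CPM in vehicle libraries. Without weekly 4 both were called lower in daily than in weekly libraries. Ndufa4l2 was low in every library, where 3 reads correspond to 0.408 to 0.628 CPM in daily libraries and to 0.271 to 1.08 CPM over all, and its daily 3 value lies below that level. It measured 0.831, 1.09, 0.155, 1.05 and 1.25 CPM in daily, 1.47, 1.27, 1.41, 2.88 and 2.32 CPM in weekly, and 1.46, 1.29, 2.40, 2.43 and 2.03 CPM in vehicle replicates 1 to 5. All daily values lay below all vehicle values, with a change of -0.87 (SE 0.28, limma adjusted p = 0.0953; with TMM scaling adjusted p = 0.0407).

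The spread of the members differed between groups. The median coefficient of variation over the 38 members was 19.0% in daily (10.4% without daily 3), 17.0% in weekly (13.6% without weekly 4) and 4.96% in vehicle libraries. This is SD over mean of CPM on the deposited scale. It includes scaling differences and counting error, so it cannot be set against the biological coefficient of variation given above for all genes. Daily 3 was the lowest daily library for 37 of 38 members on the deposited scale, with a median of -0.70 (log2) below the vehicle mean, where all genes in it had -0.53. With TMM scaling daily 3 was lowest for 4 members, at a median of -0.11, and daily 5 was lowest for 23, at -0.26. All 5 daily medians were below 0 with TMM scaling, from -0.26 to -0.07.

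Weekly 1 carried the members highest. Its median was 0.50 above the vehicle mean while all genes in it had 0.05, and with TMM scaling it was 0.47, the highest weekly library for 30 of 38 members. The other weekly medians with TMM scaling were 0.09, 0.04, -0.09 and 0.16 in weekly 2 to 5. In weekly 4 the members did not move together. Against the mean of the other weekly libraries 18 were higher and 20 lower, from 1.25 (log2) for Ndufb3 to -2.30 for Ndufb4, and the lowest 25% of members lay at or below -0.45 relative to vehicle. Ndufa2 (114 CPM, against 43.2 to 71.3 in the other weekly libraries), Ndufb7 and Ndufa13 were also high there, and Ndufa12, Ndufa3, Ndufs5 and Ndufa1 low. Across the 38 members this difference had r = 0.32 (Spearman's rho 0.33) with the GC content of the transcript, and r = 0.00 with its log2 length. Across 12287 genes r with GC content was 0.42. The points share 1 library and its depth, and the correlation is a description.

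**Figure D4:**
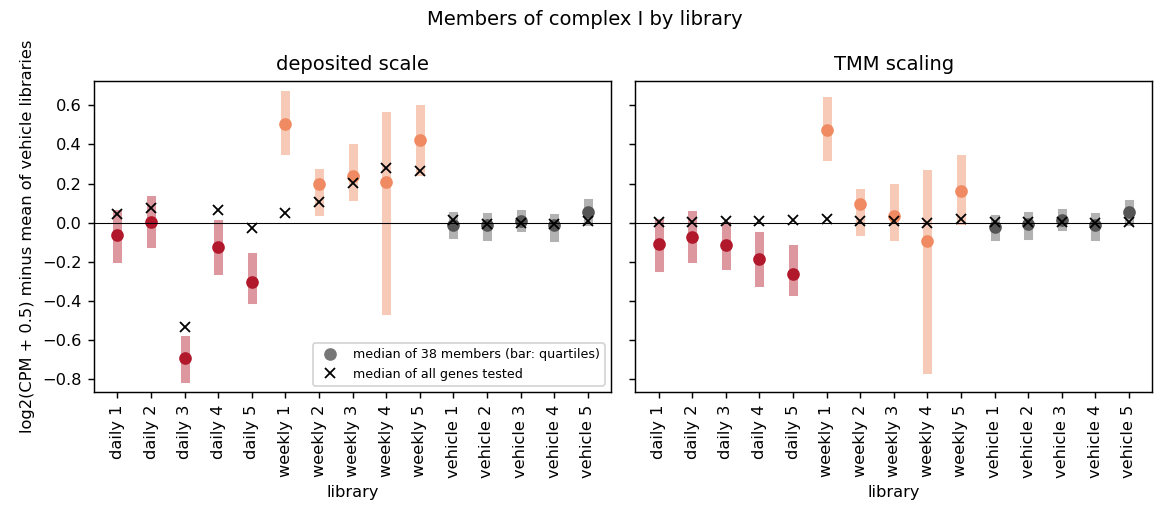
Median of the 38 members in each library (points, with quartiles as bars) and of all genes tested (crosses), relative to the mean of the vehicle libraries, on the deposited scale (left) and with TMM scaling (right). Daily 3 drops to -0.70 on the left with all genes at -0.53, weekly 1 stands at 0.47 on the right, and weekly 4 has the widest quartiles.

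Levels per length, as CPM per kilobase of all annotated exons, ranged in vehicle libraries from 7.58 (Ndufb2) to 135 (Ndufb9) with a median of 37.4 over 37 members, and were 1.76 for Ndufa4l2. Ndufa13 had 108, Ndufa2 91.9 and Ndufa4 87.5. For Ndufb2, Ndufb5, Ndufb7, Ndufs1 and Ndufab1 all annotated exons add up to 4522 to 8086 bases, longer than any of their single transcripts used for GC content (623 to 4371 bases), which lowers this figure. Exons of 17 members overlap another gene, on the opposite strand for most, such as Ndufs1 with Eef1b2 and Ndufa11 with Vmac. No source used here gives a strand setting for the counting, so these levels are uncertain. Ndufv1, Ndufb3, Ndufs7, Ndufs8, Ndufa8 and Ndufc2 have no such overlap. Ndufa9 has one, with 1700018A23Rik on the opposite strand.

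Beyond the promoters printed above, windows of 300 bases (250 upstream and 50 downstream of the RefSeq start) were present for 33 of the 38 members. They were searched on both strands for motifs of regulators of respiratory genes, and no motif contains another. The YY1 motif AAGATGGC was present in 7 members, or 21.2% against 3.19% of 27025 genes. The Sp1 motif GGGGCGGG was in 27.3% against 18.4%, CCAAT in 30.3% against 41.1%, TATAAA in 12.1% against 15.7%, the ETS motif CCGGAAGT in 3.03% against 4.31% and the nuclear respiratory factor 1 motif (the palindrome of GCGCA followed by TGCGC) in 3.03% (Ndufa11) against 1.07%. The estrogen-related receptor motif TCAAGGTCA and the glucocorticoid receptor motif (AGAACA, any 3 bases, then TGTTCT) were in no member, and in 0.466% and 0.0111% of genes.

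All 7 YY1 matches were on the sense strand between bases 23 and 46 after the start, and in all 7 the ATG inside the motif is the annotated start codon. The windows of 30 bases are shown with the motif in capitals to make this shared position visible (RefSeq, GRCm38.p6, gene's strand).
Ndufa3, chr7:3617384-3617413, plus strand: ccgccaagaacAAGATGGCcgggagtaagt
Ndufa9, chr6:126849097-126849126, minus strand: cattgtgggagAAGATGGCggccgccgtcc
Ndufb8, chr19:44555393-44555422, minus strand: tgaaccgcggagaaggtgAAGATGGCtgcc
Ndufc1, chr3:51408915-51408944, minus strand: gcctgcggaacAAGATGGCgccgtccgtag
Ndufs4, chr13:114388045-114388074, minus strand: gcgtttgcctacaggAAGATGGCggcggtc
Ndufs6, chr13:73328433-73328462, minus strand: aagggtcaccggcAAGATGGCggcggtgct
Ndufs7, chr10:80249462-80249491, plus strand: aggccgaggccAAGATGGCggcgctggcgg
Of these 7 members, 1 rose in weekly against vehicle and 3 were lower in daily against weekly, beside 5 and 16 of the 26 members whose window lacks the motif. The median changes in daily against weekly were -0.51 with and -0.53 without it. Yy1 itself was not called in any comparison (-0.07, -0.17 and -0.09).

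The other genes of the pathway were read from the same fit. The 7 complex I subunits encoded by the mitochondrial genome were called in no comparison, with medians of -0.98, 0.02 and 0.83 for weekly against vehicle, daily against vehicle and daily against weekly. The weekly values turn on weekly 4: the sum of these 7 transcripts was 6878 to 9971 CPM in daily, 7520 to 9377 CPM in weekly without weekly 4, and 8377 to 8802 CPM in vehicle libraries, so the ranges overlapped. In weekly 4 mt-Nd3 and mt-Nd4l are listed at 0.

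Of 15 tested assembly factors, which build the complex and are not part of it, 2 rose in weekly against vehicle. These were Timmdc1 (0.54, adjusted p = 0.0349) and Tmem186 (0.54, adjusted p = 0.0399), both needed for the membrane arm. In daily against weekly 2 were lower, Ndufaf1 (-0.65, adjusted p = 0.0201) and Tmem186 (-0.59, adjusted p = 0.0276), and in daily against vehicle none passed the test. The medians were 0.23, -0.15 and -0.39 for weekly against vehicle, daily against vehicle and daily against weekly. With TMM scaling Tmem186 was called in neither comparison (adjusted p = 0.0842 and 0.165).

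Nuclear subunits of complexes II to V with cytochrome c, the rest of oxidative phosphorylation, had medians near those of complex I. Of 40 genes 8 rose in weekly against vehicle, none passed in daily against vehicle and 22 were lower in daily against weekly, with medians of 0.27, -0.27 and -0.51 (with TMM scaling 6, none and 6, and medians of 0.09, -0.18 and -0.25). Cox4i1, a subunit of complex IV, averaged 184 ± 39.8 CPM over daily, 338 ± 78.9 CPM over weekly and 202 ± 6.10 CPM over vehicle libraries (SD, n = 5 each), and changed by 0.71 in weekly against vehicle (adjusted p = 0.0118) and -0.87 in daily against weekly (adjusted p = 0.00351). Uqcrc1 of complex III (0.64, adjusted p = 0.0121), Atp5b of ATP synthase (0.58, adjusted p = 0.0235) and Atp5a1 (0.64, adjusted p = 0.0266) also rose in weekly against vehicle.

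The 13 genes of the tricarboxylic acid cycle, which makes the NADH that complex I oxidises, had medians of 0.43, -0.20 and -0.58. In weekly against vehicle 4 rose (Dlst, Mdh2, Cs and Idh3b, 0.48 to 0.62), in daily against vehicle none passed, and in daily against weekly 12 were lower, with Idh3g the exception (with TMM scaling 2, none and 2). Among 17 regulators of mitochondrial biogenesis, Ppara (1.04, adjusted p = 0.0172) and Pprc1 (0.73, adjusted p = 0.0215) rose in weekly against vehicle. Ppargc1b, a coactivator of respiratory genes, averaged 14.4 ± 2.78 CPM over daily, 25.9 ± 8.16 CPM over weekly and 26.1 ± 1.24 CPM over vehicle libraries (SD, n = 5 each). It was lower in daily than in vehicle libraries (-0.86, adjusted p = 0.0078) and than in weekly libraries (-0.80, adjusted p = 0.0119), the weekly call being lost with TMM scaling (adjusted p = 0.0813). Polrmt, the mitochondrial RNA polymerase, was the other regulator lower in daily against weekly (-0.60, adjusted p = 0.0441; with TMM scaling adjusted p = 0.223). With TMM scaling Pprc1 was also higher in daily than in vehicle libraries (0.48, adjusted p = 0.0351). Ppargc1a, Nrf1, Gabpa, Esrra and Tfam were not called in any comparison.

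**Figure D5:**
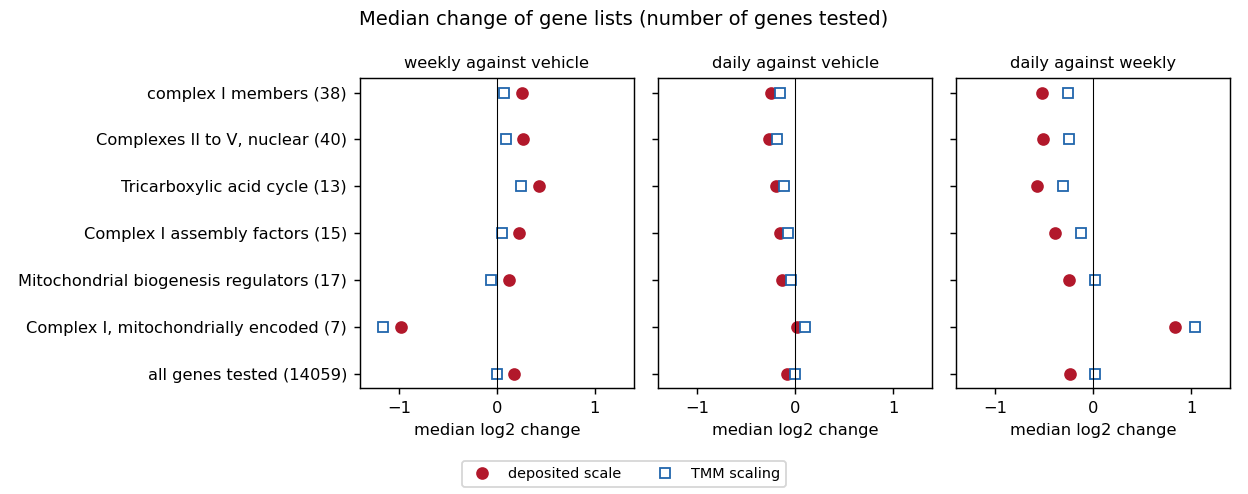
Median log2 change of each gene list (rows, with the number of genes tested) in the 3 comparisons, on the deposited scale (circles) and with TMM scaling (squares). Complex I members (0.25, -0.24 and -0.53) and complexes II to V (0.27, -0.27 and -0.51) lie close together, and mitochondrially encoded complex I genes lie apart at -0.98 in weekly against vehicle.

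Several markers of other cells and of fibre type differed between groups, in part on 1 scale only. The 12 adipocyte markers summed to 1393 to 2611 CPM over daily, 3103 to 13808 CPM over weekly and 2713 to 2957 CPM over vehicle libraries. In weekly against vehicle 5 of the 12 rose (3 with TMM scaling), in daily against vehicle 5 fell (5 with TMM scaling, and 1 rose), and in daily against weekly 10 were lower (9 with TMM scaling). Ucp1, the uncoupling protein of brown adipocytes, measured 77.8, 9.77, 47.3, 1.44 and 223 CPM in weekly replicates 1 to 5, against 0.113 to 0.73 CPM in vehicle libraries, and 3 of 6 brown and beige adipocyte markers rose in weekly against vehicle on both scales. The adipocyte sum was 5311, 3833, 8279, 3103 and 13808 CPM in weekly replicates 1 to 5. That of the 6 brown and beige adipocyte markers was 435, 241, 325, 142 and 617 CPM, against 209 to 232 CPM in vehicle libraries. Of these markers, Cox8b and Cox7a1 are also in the list of complexes II to V, and Ppargc1a in that of regulators. In vehicle libraries Cox8b had 102 to 115 CPM, Cox7a1 51.2 to 59.6 CPM and Ppargc1a 41.8 to 47.7 CPM. The sum of the 6 is therefore not a measure of adipocytes alone. The complex I members' medians relative to the vehicle mean, also on the deposited scale, were 0.50, 0.20, 0.24, 0.21 and 0.42 (log2). For the 13 skeletal muscle fibre markers the median change in daily against vehicle was -0.30, beside -0.24 for the complex I members. With TMM scaling these medians were -0.21 and -0.16. All 13 fibre changes were below 0 (12 with TMM scaling), and none was called on either scale. Daily libraries lay wholly below vehicle libraries for 7 of the 13 (8 with TMM scaling). The 8 slow fibre markers summed to 208 to 785 CPM over daily, 226 to 1982 CPM over weekly and 1040 to 1186 CPM over vehicle libraries, and 4 of 8 fell in daily against vehicle (3 with TMM scaling). The 9 macrophage markers summed to 275 to 563 CPM over daily, 199 to 507 CPM over weekly (1730 CPM in weekly 4, outside this range) and 451 to 474 CPM over vehicle libraries, with no call in either vehicle comparison. In daily against weekly 1 of 9 was lower on the deposited scale, and with TMM scaling none was lower and 1 was higher. The 6 endothelial markers summed to 116 to 183 CPM over daily, 199.5 to 328 CPM over weekly and 186 to 200.1 CPM over vehicle libraries, and 4 of 6 were lower in daily against weekly (1 with TMM scaling). The 3 blood cell markers summed to 23.4 to 45.1 CPM over daily, 43.5 to 78.3 CPM over weekly and 79.1 to 84.8 CPM over vehicle libraries, and 2 of 3 fell in daily against vehicle on both scales. Of the 6 fibroblast markers 1 was called higher in weekly against vehicle on the deposited scale, and with TMM scaling none was called higher and 1 lower. Their sum was 1973 to 3549 CPM over daily and 1920 to 2142 CPM over vehicle libraries, with no call in daily against vehicle. Daily libraries lay wholly above vehicle libraries for 1 of the 6 and wholly below for 2. With TMM scaling they lay wholly above for 4 and wholly below for 2. None of these cell type markers was at 0 in any library, and their part in the results on complex I was not tested.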

How the data were processed

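RNA-seq libraries of quadriceps (stranded total RNA kit, paired 150 bp reads, per the labels' protocols) had their reads placed on mm10 (GRCm38) by TopHat2 2.1.0, with HTSeq and edgeR also named, per the submitters' processing notes. The labels call the deposited unit RPKM, but the deposited values are CPM: all 222090 values are whole multiples of 1 read's worth within 0.01 reads, whatever the gene's length. Unnamed features (534 of 14806) held 0.276% to 0.447% of a library and were left out. Genes with at least 1 CPM in at least 5 libraries (14059 of 14272) entered limma 3.58.1 (R 4.3.3) on the log2(CPM + 0.5) scale, with an empirical Bayes trend, group as the only term and all 15 libraries, with Benjamini-Hochberg adjustment over all genes. Fold changes on this scale are understated for low genes. Alternatives used other scalings, pseudocounts and filters, libraries left out, and edgeR 4.0.16 and DESeq2 1.42.0 on the recovered reads. Recovered depth and the 3-read floor cover counting error only.

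The rule for named members took the nuclear core subunits, Ndufab1, Ndufa4, Ndufa4l2, every called member and the 3 highest and 3 lowest signed changes per comparison. 1 member is counted in sums, medians and counts and is otherwise not reported here. Ndufb8, the members described for weekly 4 and Ucp1 were chosen after their values were seen. From other lists at most 4 called genes were named. The members and lists were chosen with earlier results of these data known. Gene positions and exon lengths came from GENCODE M21. Ndufaf8, Coa1, Dmac1, Dmac2, Elovl3, Adgre1, Hba-a2, Hbb-bt and Ndufb1-ps were not analysed here.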

Additional observations from a re-analysis of the deposited data

Results flagged for a closer look

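In 96 group-and-member checks (32 members named with values, 3 groups), 9 values lay farther from the rest of their group than Dixon's criterion at the 95% level allows, and chance gives about 1 in 20. Of the 9, 6 were in weekly 4, the shallowest library, in which fibroblast markers were high and mitochondrially encoded transcripts low. It was far above the other weekly libraries for Ndufb3 (120.5 CPM, others 42.6 to 60.0) and Ndufa13 (268 CPM, others 149.6 to 183). It was far below them for Ndufb4 (9.35 CPM, others 43.7 to 53.7), Ndufa12 (14.02 CPM, others 47.0 to 53.7), Ndufs5 (21.6 CPM, others 43.4 to 49.0) and Ndufa4 (48.5 CPM, others 141 to 162). Daily 3 was far below the other daily libraries for Ndufa7 (23.1 CPM, others 37.3 to 40.6). In the vehicle group Ndufb4 was low in replicate 2 (39.7 CPM, others 43.7 to 45.2) and Ndufb3 low in replicate 4 (26.1 CPM, others 31.5 to 33.1).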

How the results depend on the processing

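No member's change switched from a call in 1 direction to the other under any alternative. Members called in weekly against vehicle, daily against vehicle and daily against weekly numbered 7, 0 and 23 as reported. They numbered 6, 2 and 8 with TMM scaling, 2, 2 and 5 with median centring, 13, 2 and 14 with array weights per group, and 13, 5 and 2 when only the groups compared were fitted. edgeR on the recovered reads gave 6, 2 and 8, and DESeq2 gave 6, 2 and 12. Over all genes limma called 1133, 547 and 1227 as reported and 1395, 1275 and 665 with TMM scaling, edgeR 1584, 1333 and 746, and DESeq2 1904, 1596 and 1047. Of all genes limma called 1378, 1230 and 644 with median centring and 1811, 1195 and 560 with array weights per group. With only the groups compared fitted it called 1365, 1685 and 232. Averaging the vehicle group into 1 sample left weekly against vehicle with 0 calls (limma; 7 among all genes). Settings chosen after seeing the data combined TMM scaling with libraries left out: 12, 10 and 26 without weekly 4, 5, 1 and 2 without daily 3, and 10, 10 and 24 without both. Calls among all genes were 2403, 2995 and 1881 without weekly 4, 1276, 1002 and 419 without daily 3, and 2399, 2842 and 1704 without both. Leaving out 1 library gave 2 to 15 calls in weekly against vehicle, 0 to 6 in daily against vehicle and 11 to 35 in daily against weekly. The same settings gave 645 to 2251, 347 to 1478 and 521 to 1888 calls among all genes. Pseudocounts of 0.1 and 1 and no filter gave 7 or 8, 0, and 22 or 23, beside 1093 to 1165, 527 to 545 and 1201 to 1229 of all genes. The cause of these moves was not tested. The replicate numbers did not pair the libraries (correlations of deviations -0.03 to 0.15). The fit with the replicate block called 6, 0 and 22, beside 1096, 494 and 985 of all genes. Depth limits Ndufa4l2, which was below the level of 3 reads in daily 3 and 0.831 to 1.25 CPM in the other daily libraries, where 3 reads are 0.408 to 0.628 CPM.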
